A study of Mus musculus with 20 samples.

Results

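The 10 genes described here encode NF-κB transcription factor subunits (Nfkb1, Nfkb2, Rel and Relb), IκB proteins that bind them (Nfkbia, Nfkbib, Nfkbie and Nfkbiz), and the ubiquitin-editing enzyme A20 (Tnfaip3) and ubiquitin ligase cIAP2 (Birc3), which act on the signalling complexes upstream. They were listed by name, with earlier results of these data known. All 10 were found by Entrez number among the 36528 gene models of each library. All 10 passed the filter on low counts, which left 15390 genes for testing. Their counts ran from 970 for Rel to 34394 for Nfkbia in a single library, so counting error was small beside the spread between libraries.

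Macrophages and monocytes had been sorted from tumours of MC38, a mouse colon carcinoma line, and profiled by bulk RNA-seq. The tumours were controls or had been treated with an antibody against PD-L1, through which tumour and myeloid cells engage the inhibitory receptor PD-1. Sampling took place 7 days after the start of treatment. There were 4 groups of 5 libraries: control monocytes, anti-PD-L1 monocytes, control macrophages and anti-PD-L1 macrophages, all from tumour-bearing mice. The sources used here do not give the control agent, the antibody clone and dose, the mouse strain and age, or the sort gates. Nothing in the labels ties a library to an animal or pool of animals. The p-values therefore reflect only how these libraries vary, which may be technical. Controls were numbered before treated samples throughout, so treatment and any effect of that numbering cannot be told apart. This numbering is not the order of deposit, in which the groups are mixed.

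In resting cells, IκB proteins hold NF-κB dimers in the cytoplasm. Toll-like, interleukin-1 and TNF receptors signal through adaptors and the IκB kinase to degrade IκB, and the freed dimers of p50 (Nfkb1), RelA (Rela) and c-Rel (Rel) enter the nucleus, while a slower arm through the kinase NIK processes Nfkb2 to p52, which pairs with RelB. NF-κB then induces genes that end the signal, among them Nfkbia, Nfkbie and Tnfaip3. It also induces Birc3 and genes that tune the signal, such as Nfkbiz. The product of Nfkbiz, IκBζ, works in the nucleus as a co-activator of secondary response genes. In monocytes and macrophages this circuit drives cytokine, chemokine and survival genes.

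Several of these genes are known to carry binding sites for the factor they regulate near their start. RefSeq promoter windows on GRCm38.p6, from 250 bases before to 50 after a start site, were held for 7 members in 10 windows, and Nfkb1, Relb and Nfkbiz had no entry. The 10-base kappaB consensus was searched on both strands, with overlapping matches counted. It was found in 7 of the 10 windows and in 5 of the 7 members: Nfkb2, Rel, Nfkbia, Nfkbie and Tnfaip3. Several of the 7 windows belong to Nfkb2. Those at 46305445 to 46305744 and 46305680 to 46305979 overlap and share the match at 46305705 to 46305714, so the 7 windows are not separate. Over all RefSeq windows of this length, 2779 of 32851 (8.46%) held a match, and by gene the share was 9.55%. The looser motif GGGNNNNNCC was in 50.8% of all windows. No consensus match was found in the windows of Nfkbib and Birc3, which says only that these letters are not in those windows. The 5 windows below are shown up to the start site, 5′ to 3′ on the strand of the gene. They are windows that hold matches, 1 for each of the 5 members with a match. For Nfkb2 the window with the most matches is shown (3, against 2 and 1), and the other Tnfaip3 window held 0. Capitals mark the consensus matches.
Nfkb2, chr19:46304487-46304736, plus strand: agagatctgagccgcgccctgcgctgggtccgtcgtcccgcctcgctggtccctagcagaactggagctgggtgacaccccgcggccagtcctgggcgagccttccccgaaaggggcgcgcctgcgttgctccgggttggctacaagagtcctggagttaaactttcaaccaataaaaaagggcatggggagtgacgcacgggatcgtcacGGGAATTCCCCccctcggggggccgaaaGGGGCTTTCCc
Rel, chr11:23770970-23771219, minus strand: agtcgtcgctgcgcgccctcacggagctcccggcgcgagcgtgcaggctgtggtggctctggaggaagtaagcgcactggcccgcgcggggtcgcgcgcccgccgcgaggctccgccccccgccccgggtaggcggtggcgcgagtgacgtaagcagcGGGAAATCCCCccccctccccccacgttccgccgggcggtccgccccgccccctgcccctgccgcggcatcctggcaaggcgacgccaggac
Nfkbia, chr12:55492648-55492897, minus strand: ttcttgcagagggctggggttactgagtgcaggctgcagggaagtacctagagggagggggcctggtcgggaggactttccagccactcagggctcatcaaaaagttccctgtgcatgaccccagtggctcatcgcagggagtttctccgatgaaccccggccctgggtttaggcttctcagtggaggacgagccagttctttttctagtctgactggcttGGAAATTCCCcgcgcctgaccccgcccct
Nfkbie, chr17:45555450-45555699, plus strand: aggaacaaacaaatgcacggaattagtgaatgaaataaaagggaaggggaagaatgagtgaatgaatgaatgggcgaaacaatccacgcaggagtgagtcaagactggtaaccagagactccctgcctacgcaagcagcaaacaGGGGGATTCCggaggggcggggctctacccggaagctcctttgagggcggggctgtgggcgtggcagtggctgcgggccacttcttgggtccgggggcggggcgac
Tnfaip3, chr10:19015411-19015660, minus strand: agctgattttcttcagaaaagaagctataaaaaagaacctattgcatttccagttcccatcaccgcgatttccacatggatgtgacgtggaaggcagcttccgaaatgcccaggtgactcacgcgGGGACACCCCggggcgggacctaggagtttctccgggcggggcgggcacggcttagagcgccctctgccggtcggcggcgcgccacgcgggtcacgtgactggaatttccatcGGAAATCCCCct
The Nfkb2 window held 2 overlapping matches, the first beginning 39 bases before the start, and another at 11 bases. The Rel window held an overlapping pair at 92 and 91 bases, Nfkbia 1 match at 29 bases and Nfkbie 1 at 106 bases. Tnfaip3 held matches at 125 and 12 bases. Windows with 2 or more matches made up 1.22% of all windows. A match is a description of the sequence, and binding was not measured.

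Libraries held 30191509 to 36514133 counts. Levels of a gene across libraries are given as CPM (read counts scaled to library size) on library sizes scaled by TMM, as mean ± SD with n = 5. The sorted populations carried the defining markers of their labels. Of 11 monocyte markers, 8 were lower in macrophages of control tumours and 9 in treated tumours, with Ly6c2 at 910 ± 333 and 1580 ± 318 CPM in control and treated monocytes against 5.42 ± 2.54 and 11.1 ± 7.08 in macrophages. Of 12 macrophage markers, 9 were higher in macrophages in either condition and 1, Fcgr1, was lower in both (-0.46, SE 0.15, each), with Adgre1 at 311 ± 57.5 and 383 ± 26.6 CPM in monocytes and 1070 ± 199 and 1340 ± 152 in macrophages. Monocyte libraries also carried more neutrophil marker RNA, with 7 of 7 tested markers lower in macrophages in both conditions. Their mean level per library was 2.83 to 5.40 log2 CPM in monocytes and -1.38 to 0.28 in macrophages, and Ly6g and Camp, which define neutrophils, were too low to be tested. Fibroblast marker RNA differed with treatment and is given beside the treatment results. Tumour epithelial markers were low, and Krt8, Krt18, Krt19 and Krt20 were under the filter.

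On the length-scaled nRPKM values, which allow levels of different genes to be set side by side, Nfkbia was the highest member in all 4 groups, at 491 ± 140 in control monocytes, 576 ± 122 in treated monocytes, 253 ± 33.2 in control macrophages and 243 ± 36.4 in treated macrophages. Nfkbiz had the next mean in every group, between 144 in control macrophages and 168 in treated monocytes. Tnfaip3 was above it in control monocyte 4 and treated monocyte 3. By mean, Tnfaip3, Nfkb1, Nfkbie and Birc3 followed in that order in all 4 groups. This order is of means only: in treated monocytes, for example, Nfkb1 (85.1 to 108) and Nfkbie (77.6 to 110) overlapped. Rel and Relb were the lowest members throughout, and their ranges overlapped in each group, with Rel at 24.0 ± 6.85 and Relb at 22.8 ± 4.03 nRPKM in control monocytes. Nfkb2 and Nfkbib also lay within each other's spread there, at 40.8 ± 6.67 and 40.5 ± 8.70 nRPKM. In every group the mean nRPKM of the inhibitors Nfkbia and Nfkbiz was higher than that of any subunit gene in the list.

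Mean shares of most subunits differed little between the 4 groups. Of the summed nRPKM of Nfkb1, Nfkb2, Rel, Relb and Rela, the gene of the RelA subunit, Nfkb1 made up a mean of 36.4% in control monocytes, 37.9% in treated monocytes, 36.4% in control macrophages and 38.4% in treated macrophages. Rela contributed 20.8% to 23.5%, Nfkb2 15.2% to 19.6%, and Rel and Relb each 10.6% to 12.3%. In treated tumours the Rela share was 20.1% to 21.8% in monocytes and 22.0% to 24.7% in macrophages, with no overlap. The Nfkb2 share there was 18.1% ± 0.962 in monocytes and 15.2% ± 1.37 in macrophages. Shares of the inhibitors differed more. Of the summed nRPKM of the 4 IκB genes, Nfkbia made up 65.1% ± 3.76 and 64.5% ± 4.35 in control and treated monocytes and 55.9% ± 4.78 and 52.6% ± 4.42 in macrophages. Nfkbiz made up 20.2% ± 2.20 and 19.1% ± 1.60 in monocytes and 31.1% ± 4.75 and 32.7% ± 3.63 in macrophages. Its share was 16.4% to 21.8% over the 10 monocyte libraries and 22.9% to 35.5% over the 10 macrophage libraries, with no overlap. These shares are a description and were given no test.

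**Figure D1:**
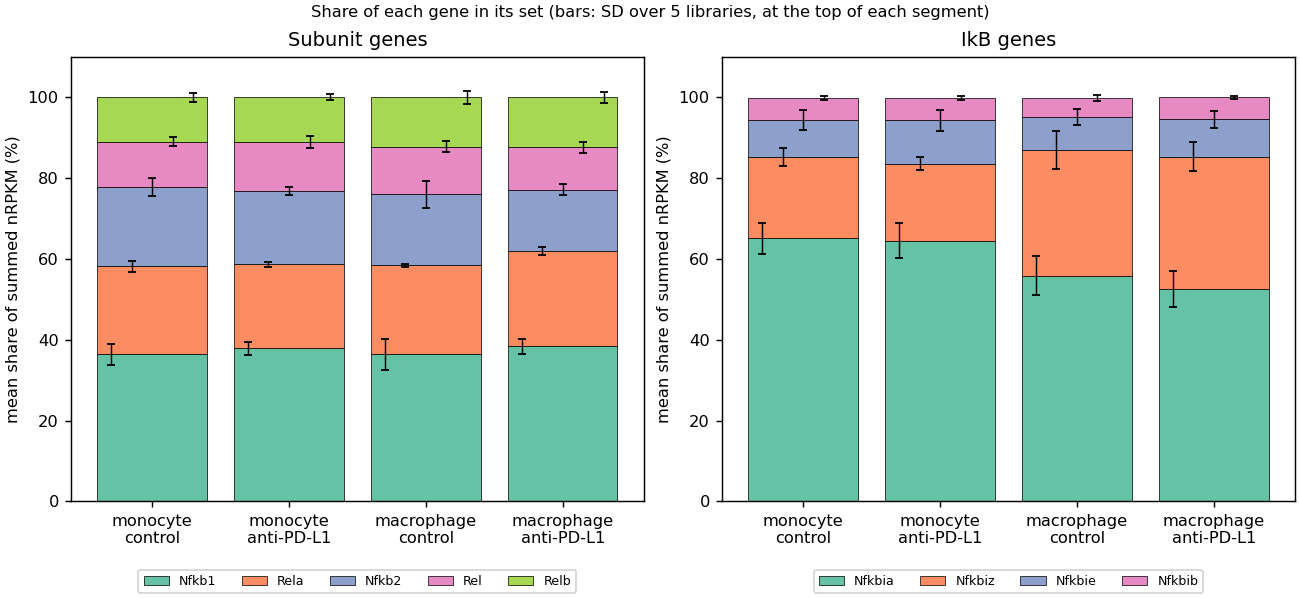
Mean share of each gene in the summed nRPKM (in %) of 5 subunit genes (left) and 4 IκB genes (right) in the 4 groups; bars at the top of each segment are the SD over 5 libraries. Most subunit segments stay near the same height, with Nfkb2 at 15.2% to 19.6%. The Nfkbiz segment is 19.1% to 20.2% in monocytes and 31.1% to 32.7% in macrophages.

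The first comparison asks how the 2 sorted populations differ. The members were lower in macrophages than in monocytes in both conditions, except Nfkbiz. In control tumours 9 of 10 members were called lower at an adjusted p under 0.05, where 20% of all tested genes were called lower. In treated tumours it was again 9 of 10, where 25.7% of all genes were called lower. The median log2 fold change of the members, macrophages against monocytes, was -0.77 in control tumours and -1.12 in treated tumours, while the median over all genes was near 0 in both, at 0.00 and -0.01. All 5 macrophage libraries lay below all 5 monocyte libraries for 6 members in control tumours and for 9 in treated tumours, where 10.8% and 22.0% of all genes did so. These are bulk libraries, so fewer cells expressing a gene and less RNA per cell cannot be told apart.

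**Figure D2:**
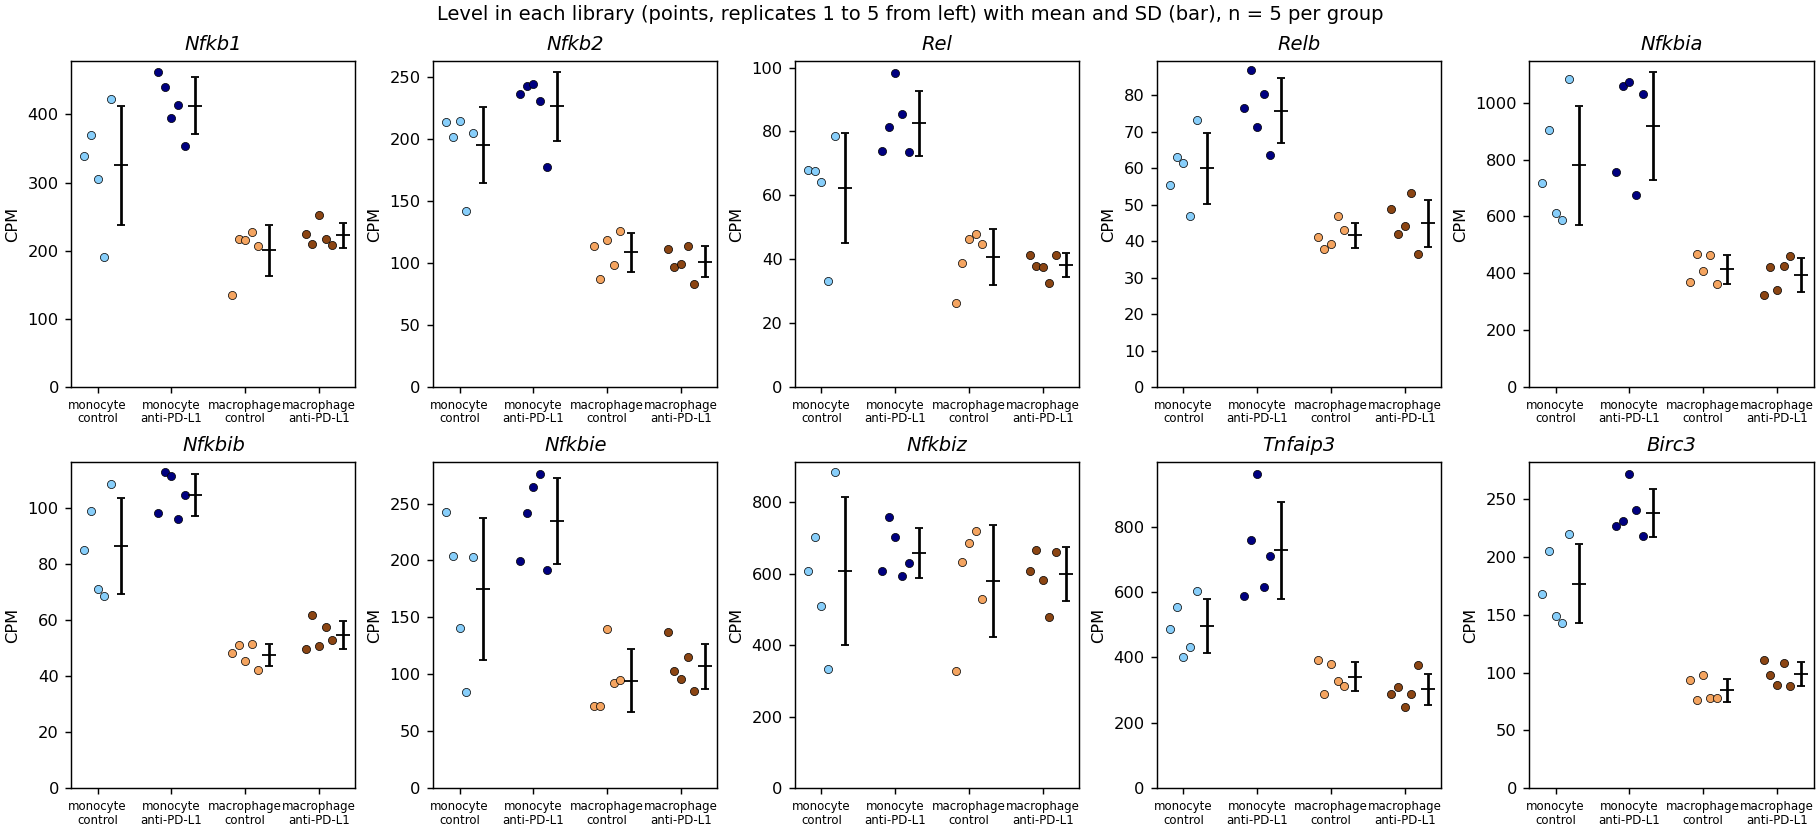
CPM of each member in each library (points, replicates 1 to 5 from left) with mean and SD (bars) in the 4 groups; all axes start at 0. Macrophage libraries lie low for every member but Nfkbiz, whose groups overlap at means of 579 to 659 CPM.

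Among the subunits, Nfkb1 (Entrez 18033, chromosome 3, 135584655 to 135691969), the precursor of p50, was at 338, 370, 305, 190 and 422 CPM in control monocytes 1 to 5 and at 135, 217, 216, 228 and 207 CPM in control macrophages. The groups overlapped through control monocyte 4 alone, which lay inside the macrophage range. The log2 fold change was -0.70 (SE 0.16, adjusted p = 0.00189). In treated tumours Nfkb1 stood at 353 to 462 CPM in monocytes and at 208 to 253 CPM in macrophages, which did not overlap (-0.89, SE 0.17, adjusted p = 0.000147). Nfkb2 (Entrez 18034, chromosome 19, 46300994 to 46312400), the precursor of p52, was 195 ± 30.4 and 226 ± 28.1 CPM in control and treated monocytes against 109 ± 15.6 and 101 ± 12.5 CPM in macrophages. Its log2 fold changes between cell types were -0.85 (SE 0.13, adjusted p = 2.6e-05) and -1.16 (SE 0.13, adjusted p = 4.32e-07). Nfkb2 overlaps exons of Psd and of the non-coding gene AC114539.1 on the opposite strand, and whether counting used the strand is not stated in the labels. Psd was at 5.33 to 39.3 CPM, and how many Nfkb2 counts come from these genes was not tested, so its values are uncertain.

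Rel (Entrez 19696, chromosome 11, 23736847 to 23770969) and Relb (Entrez 19698, chromosome 7, 19606217 to 19629438), which encode c-Rel and RelB, were the members with the lowest levels. Rel was at 62.3 ± 17.1 and 82.6 ± 10.2 CPM in control and treated monocytes and at 40.8 ± 8.82 and 38.2 ± 3.63 CPM in macrophages. Its log2 fold change between cell types was -0.61 in control tumours (SE 0.18, adjusted p = 0.00961) and -1.11 in treated tumours (SE 0.18, adjusted p = 4.04e-05). With only the 2 control groups in the fit, Rel was -0.63 with an adjusted p of 0.0543. Relb was at 60.0 ± 9.72 and 75.8 ± 8.83 CPM in monocytes and 41.6 ± 3.50 and 45 ± 6.45 CPM in macrophages, with the smallest differences among the called members (-0.53, SE 0.12, and -0.75, SE 0.12, adjusted p = 0.00106 and 2.23e-05). Rela, which was listed with the other pathway genes, was also lower in macrophages (-0.67, SE 0.11, and -0.74, SE 0.11, adjusted p = 9.62e-05 and 2.39e-05).

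Of the IκB genes, Nfkbia (Entrez 18035, chromosome 12, 55489409 to 55492647), whose product IκBα is degraded and resynthesised in each round of activation, was at 717, 903, 614, 587 and 1083 CPM in control monocytes. It was at 369, 468, 408, 463 and 364 CPM in control macrophages, all under the lowest monocyte library. In treated tumours it was at 755, 1059, 1074, 674 and 1030 CPM in monocytes and at 324, 424, 341, 426 and 460 CPM in macrophages, again with no overlap. Both cell types differed by more than their spread, with log2 fold changes of -0.91 (SE 0.17, adjusted p = 0.00025) and -1.22 (SE 0.17, adjusted p = 8.37e-06). Nfkbib (Entrez 18036, chromosome 7, 28758251 to 28766644; IκBβ) was lower by a similar step, from 86.6 ± 17.3 CPM in control monocytes to 47.7 ± 3.94 in control macrophages and from 105 ± 7.60 to 54.6 ± 5.05 CPM in treated tumours (-0.86 and -0.94, SE 0.11 each, adjusted p = 4.24e-06 and 9.41e-07). Ccer2 lies across Nfkbib on the opposite strand and had at most 33 counts in a library, against at least 1737 for Nfkbib. Nfkbie (Entrez 18037, chromosome 17, 45555700 to 45563169; IκBε) had a coefficient of variation within groups of 16.1% to 35.7%, the highest of the members except in treated monocytes, where Nfkbia (20.6%) and Tnfaip3 (20.4%) varied more. It was at 175 ± 62.4 and 235 ± 37.7 CPM in monocytes and at 94.4 ± 27.4 and 107 ± 19.7 CPM in macrophages (-0.89 and -1.13, SE 0.23 each, adjusted p = 0.00387 and 0.000387).

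Nfkbiz (Entrez 80859, chromosome 16, 55811375 to 55838954) was the only member not called between cell types. It was at 608, 701, 510, 333 and 884 CPM in control monocytes and at 329, 633, 686, 719 and 529 CPM in control macrophages. In treated tumours it was at 608, 759, 703, 594 and 630 CPM in monocytes and at 606, 665, 582, 480 and 661 CPM in macrophages. The groups overlapped over most of their range, and control monocyte 4 and control macrophage 1, which carry neighbouring sample numbers, were the lowest of the 20 libraries. The log2 fold changes were -0.07 (SE 0.21, adjusted p = 0.815) and -0.14 (SE 0.21, adjusted p = 0.614).

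Whether Nfkbiz differed from the other members was tested on the gap between its log2 CPM and that of each other member within a library. This test was chosen after the values were seen, for the only member not called between cell types, so it is not independent support. The adjustment does not cover that choice. All 9 gaps use the same Nfkbiz values, so they are not 9 separate results. The gap to Nfkbia, for example, was -0.40 ± 0.24 in control monocytes and 0.44 ± 0.36 in control macrophages, and -0.46 ± 0.21 and 0.60 ± 0.28 in treated tumours. In treated tumours all 9 gaps were shifted towards Nfkbiz in macrophages, by 0.61 (Relb) to 1.13 (Birc3), with adjusted p of 0.0119 to 0.0306 in two-sided exact permutation tests (5 against 5 libraries, adjusted over 18 tests). In control tumours all 9 gaps were shifted the same way, by 0.47 to 1.0, and 6 of 9 passed. Those to Nfkb2, Relb and Tnfaip3 did not, at exact permutation adjusted p of 0.0536, 0.101 and 0.183. The smallest p this design allows is 0.00794. Over fits that left out 1 library, the gaps to Nfkb1, Rel, Nfkbia and Nfkbie passed in all 10 fits in both conditions. Of the other gaps that had passed in control tumours, that to Nfkbib passed in 1 of 10 fits and that to Birc3 in 3 of 10, and in treated tumours that to Relb passed in 3 of 10. With neighbouring libraries as pairs, all 9 gaps were shifted towards Nfkbiz in 5 of 5 pairs in both conditions, and 0 passed (exact sign-flip permutation test, two-sided, adjusted p = 0.0625 for each), since 0.0625 is the smallest p that 5 pairs allow.

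Tnfaip3 (Entrez 21929, chromosome 10, 19000910 to 19015410), which removes activating ubiquitin chains from adaptors such as RIPK1, was at 486, 556, 402, 433 and 603 CPM in control monocytes and at 394, 289, 380, 328 and 313 CPM in control macrophages. The groups did not overlap, though control monocyte 3 and control macrophage 1 came close. In treated tumours it was at 589, 761, 962, 616 and 712 CPM in monocytes and at 287, 309, 248, 289 and 378 CPM in macrophages, and the lowest monocyte library was well above the highest macrophage library. The log2 fold change between cell types was -0.54 in control tumours (SE 0.15, adjusted p = 0.00506) and -1.27 in treated tumours (SE 0.15, adjusted p = 8.31e-07). Birc3 (Entrez 11796, chromosome 9, 7847468 to 7873205), an antagonist of cell death that attaches ubiquitin to RIPK1, differed most in control tumours. It was at 168, 205, 149, 143 and 220 CPM in control monocytes against 93.4, 76.0, 97.9, 78.2 and 78.1 CPM in control macrophages. Treated monocytes were at 227, 231, 272, 241 and 218 CPM and treated macrophages at 111, 97.7, 89.6, 108 and 88.7 CPM. No macrophage library reached a monocyte library (-1.06 and -1.27, SE 0.12 each, adjusted p = 7.27e-07 and 5.66e-08).

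**Figure D3:**
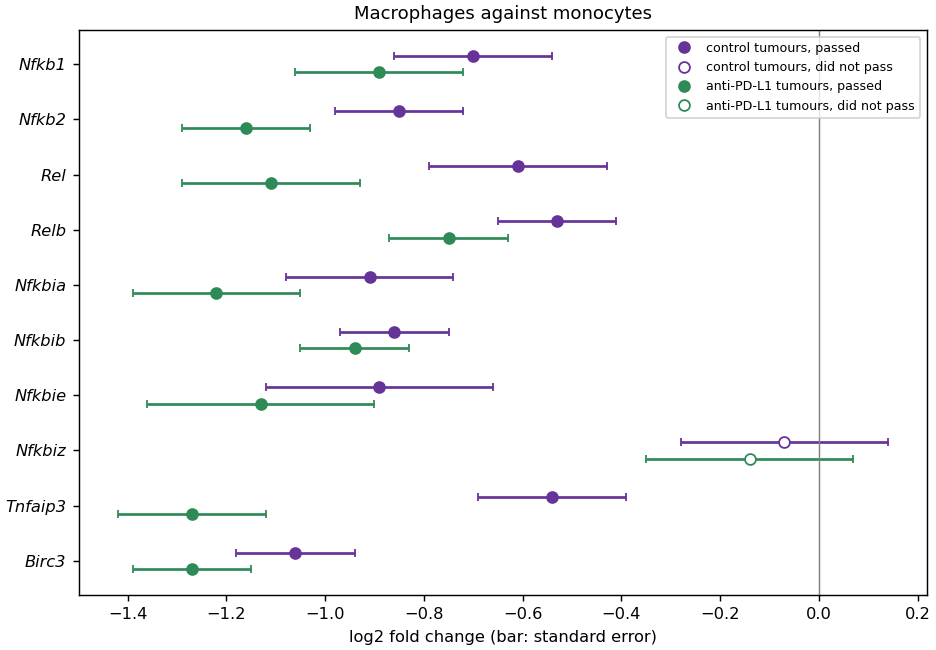
Log2 fold change of each member, macrophages against monocytes, in control and in anti-PD-L1 tumours; bars are standard errors and filled points have an adjusted p under 0.05. All members but Nfkbiz lie between -1.27 and -0.53, and Nfkbiz lies at -0.07 and -0.14.

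Libraries with neighbouring sample numbers, 1 macrophage and 1 monocyte library each, deviated together from their group means. Within these 10 pairs, each of the 9 called members was lower in the macrophage library of all 10 pairs. Any pairing gives this where the groups do not overlap, for 9 members in treated and 6 in control tumours. The share of all genes lower in all 10 pairs was not computed, so this count is a description. Nfkbiz was lower in 6 and higher in 4, with a median log2 difference of -0.04. With neutrophil and monocyte marker RNA both higher in the monocyte libraries, their part in the cell type differences was not tested. With a covariate for fibroblast marker RNA, or without the 6 control libraries that carried most of that RNA, 9 members remained called in both conditions.

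The second comparison asks what anti-PD-L1 changed in monocytes. Tnfaip3, Birc3 and Relb were higher in treated monocytes, by 46.8%, 34.3% and 26.3%. The other 7 members had positive fold changes that did not pass. The 3 of 10 called higher compare with 9.92% of all tested genes called higher. The median log2 fold change of the members was 0.34 and that of all genes 0.02. For no member did the 5 treated libraries all lie above the 5 controls. The share of all genes for which they did was not computed.

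Tnfaip3 rose most, from 496 ± 83.5 to 728 ± 148 CPM. Of the treated libraries, 4 were above the highest control, and treated monocyte 1 at 589 CPM was under control monocyte 5 at 603. The log2 fold change was 0.55 (SE 0.15, adjusted p = 0.0124), and it passed in all 20 fits that left out 1 library, at 0.41 to 0.61. Birc3 rose from 177 ± 34.0 to 238 ± 20.9 CPM, with 4 treated libraries above all controls and treated monocyte 5, at 218, just under control monocyte 5, at 220 (0.43, SE 0.12, adjusted p = 0.0150). Birc3 passed in 18 of the 20 fits, and was lost without control monocyte 3 (0.37, adjusted p = 0.0517) or control monocyte 4 (0.34, adjusted p = 0.0508). With either of these libraries left out, Tnfaip3 was the only member called.

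Relb, the partner of p52, was at 55.4, 63.2, 61.4, 46.8 and 73.1 CPM in control monocytes and at 76.6, 86.8, 71.3, 80.4 and 63.7 CPM after treatment. Control monocyte 5 was above 2 of the treated libraries, and the other 4 controls were below all of them. The log2 fold change was 0.34 (SE 0.12, adjusted p = 0.0395). It is the least stable of the 3 calls: it passed in only 6 of the 20 fits that left out 1 library, with adjusted p from 0.0123 without control monocyte 5 to 0.142 without control monocyte 4. The 6 fits were those without treated macrophage 4 or 5, control macrophage 4, treated monocyte 5, or control monocyte 2 or 5. Without the filter on low counts the adjusted p for Relb was 0.0582.

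The remaining members did not pass in treated monocytes. Rel averaged 62.3 ± 17.1 and 82.6 ± 10.2 CPM (0.41, SE 0.18, adjusted p = 0.102), and control monocyte 4 was far below the rest at 33.2 CPM. Nfkbie averaged 175 ± 62.4 and 235 ± 37.7 CPM (0.43, SE 0.23, adjusted p = 0.178), so that a fold change as large as that of Birc3 came with a larger standard error (0.23 against 0.12). Nfkb1 had 0.34 (SE 0.16, adjusted p = 0.130), Nfkbib 0.28 (SE 0.11, adjusted p = 0.0701), Nfkbia 0.23 (SE 0.17, adjusted p = 0.326), Nfkb2 0.21 (SE 0.13, adjusted p = 0.229) and Nfkbiz 0.12 (SE 0.21, adjusted p = 0.718). Nfkbib passed without control monocyte 2 (0.33, adjusted p = 0.0398) or control monocyte 5 (0.35, adjusted p = 0.0143). Control monocyte 4 was the lowest control for 9 of the 10 members and control monocyte 5 the highest for 8.

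Fibroblast marker RNA moved with treatment in the same libraries. The mean level of 19 fibroblast markers was 3.43 to 6.22 log2 CPM over control monocytes and 1.78 to 3.95 over treated monocytes, and 12 of the 19 were called lower after treatment, with Col3a1 at 883 ± 593 and 117 ± 103 CPM. None of the 19 was at 0 in all libraries. With this level as a covariate, 0 of 10 members were called. Tnfaip3 then had a log2 fold change of 0.58 (adjusted p = 0.180), Birc3 0.39 (adjusted p = 0.264) and Relb 0.16 (adjusted p = 0.677). Without the 6 control libraries highest in these markers, which left control monocytes 2 and 5, 0 members were called and the values were 0.31 for Tnfaip3 (adjusted p = 0.514), 0.14 for Birc3 (adjusted p = 0.602) and 0.13 for Relb (adjusted p = 0.733). Over all genes, calls in monocytes went from 3900 to 3 with the covariate and to 83 without the 6 libraries. With only the 2 monocyte groups in the fit, 0 members were called as well, at 0.54 for Tnfaip3 (adjusted p = 0.0532), 0.41 for Birc3 (adjusted p = 0.0613) and 0.32 for Relb (adjusted p = 0.0960).

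**Figure D4:**
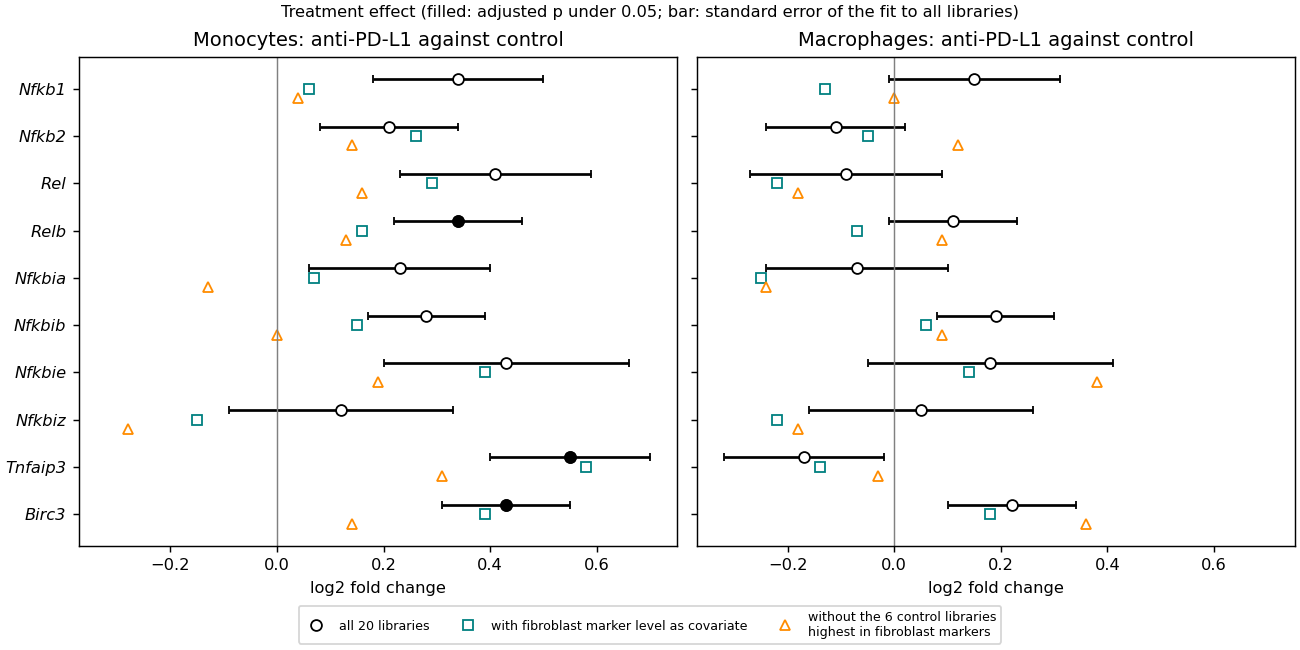
Log2 fold change of each member, anti-PD-L1 against control, in monocytes (left) and macrophages (right), from all 20 libraries (circles, with standard errors), with fibroblast marker level as covariate (squares) and without 6 control libraries (triangles); filled symbols have an adjusted p under 0.05. Relb, Tnfaip3 and Birc3 are filled in monocytes in the fit to all libraries, and no symbol is filled elsewhere.

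In macrophages, 0 of 10 members were called after treatment, where 4.65% of all genes were called in either direction. An unadjusted p under 0.05 was reached by 0 members and by 3620 of the 15390 genes tested. DESeq2 and limma-voom also called 0. The log2 fold changes ran from -0.17 for Tnfaip3 to 0.22 for Birc3, with a median of 0.08 (all genes -0.01) and a lowest adjusted p of 0.258. Tnfaip3 averaged 341 ± 44.5 CPM without and 302 ± 47.6 CPM with treatment (-0.17, SE 0.15, adjusted p = 0.520), with 2 treated libraries below all controls. Birc3 averaged 84.7 ± 10.1 and 99.0 ± 10.2 CPM (0.22, SE 0.12, adjusted p = 0.258), with 2 treated libraries above all controls. Nfkbib, at 47.7 ± 3.94 and 54.6 ± 5.05 CPM, had 3 treated libraries above all controls (0.19, SE 0.11, adjusted p = 0.308). Nfkbia averaged 414 ± 50 and 395 ± 59.0 CPM (-0.07, SE 0.17, adjusted p = 0.850). In these libraries fibroblast markers were at 1.90 to 5.62 log2 CPM in controls and 1.44 to 3.33 after treatment, and 10 of 19 were called lower.

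Whether treatment acted differently on the cell types was tested as the difference of the effects, monocytes minus macrophages. For all 10 members it was positive, from 0.07 for Nfkbiz to 0.73 for Tnfaip3, with a median of 0.23 (all genes 0.02), and 0 members were called, as were 0.0% of all genes. Tnfaip3 was the only member with an unadjusted p under 0.05 (0.73, SE 0.21, adjusted p = 0.688), and its adjusted p over the alternatives run was 0.0937 to 1.0. Rel followed with 0.50 (SE 0.25, adjusted p = 0.811) and Nfkb2 with 0.32 (SE 0.18, adjusted p = 0.836). Over all genes 980 had an unadjusted p under 0.05, and DESeq2 called 5. A difference between the cell types in the response of these genes was therefore not shown.

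The order of the 4 groups was the same at its upper end for every member: treated monocytes had the highest mean CPM and control monocytes the next. The 2 monocyte groups overlapped for all 10 members, as did the 2 macrophage groups. The step from control monocytes to the higher of the macrophage groups was free of overlap for Nfkb2, Nfkbia, Nfkbib, Tnfaip3 and Birc3. The share of all genes free of overlap was not computed for these steps, so they only describe the members. Treated macrophages had the higher mean for Nfkb1, Relb, Nfkbib, Nfkbie, Nfkbiz and Birc3, and control macrophages for Nfkb2, Rel, Nfkbia and Tnfaip3.

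The rest of the pathway was taken as 130 genes in 7 role lists, of which 124 were tested. The lists were chosen with earlier results of these data known. Their counts describe the members' setting and are not independent support. Between cell types 69 were called lower and 14 higher in macrophages of control tumours, where 20% of all genes were called lower and 24.0% higher. In treated tumours it was 79 lower and 10 higher, where 25.7% and 28.2% of all genes were. The medians were -0.52 and -0.69 (all genes 0.00 and -0.01). In treated monocytes 45 were called higher and 3 lower, where 9.92% of all genes were called higher and 15.4% lower, with a median of 0.35 (all genes 0.02). In treated macrophages 7 were called higher and 2 lower, where 1.73% of all genes were called higher and 2.92% lower, with a median of 0.17 (all genes -0.01). With the fibroblast level as a covariate, 0 were called in either cell type, and without the 6 control libraries 2 were called in monocytes (Tlr8 and Tnfsf13b) and 3 in macrophages (Nod1, Saa3 and Tlr8).

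By role, 11 of 21 tested receptors were called higher in treated monocytes, against 9.92% of all genes, the share that applies to the other role lists too. Tlr4, the receptor for bacterial lipopolysaccharide, went from 42.1 ± 2.93 to 63.9 ± 9.64 CPM (0.60, SE 0.09, adjusted p = 0.00325), and Tlr6 (0.69, SE 0.12) and the double-stranded RNA receptor Tlr3 (0.67, SE 0.15) also rose. Of 9 tested ligands, 2 rose, Tnfsf10, the gene of TRAIL (0.92, SE 0.22), and Tnfsf13b, the gene of BAFF (0.69, SE 0.19). Of 22 adaptors 7 rose, including Ripk1 (0.49, SE 0.10), Irak2 (0.43, SE 0.12) and Myd88 (0.53, SE 0.15), the adaptor shared by most Toll-like receptors. Of 11 kinases 5 rose and 1 fell, with Map3k8 (0.55, SE 0.09), Tbk1 (0.40, SE 0.09) and Tab2 (0.30, SE 0.09) at the smallest p. Among 23 other brakes and ubiquitin factors 10 rose and 1 fell, with Tax1bp1, a partner of A20 (0.48, SE 0.10), Nlrx1 (0.43, SE 0.09) and the deubiquitinase gene Cyld (0.38, SE 0.08) at the smallest p. Of 34 tested target genes 10 rose and 1 fell. Nos2, the inducible nitric oxide synthase, went from 189 ± 74.8 to 609 ± 336 CPM (1.69, SE 0.35, adjusted p = 0.00509), Tnfaip2 rose by 1.07 (SE 0.23) and Irf1 by 0.77 (SE 0.17). Of 4 other subunit and nuclear IκB genes 0 were called, with Rela at 135 ± 27.6 and 159 ± 11.1 CPM (0.24, SE 0.11, adjusted p = 0.127).

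In treated macrophages the called pathway genes included the kinase gene Ikbke (0.67, SE 0.17), the receptor gene Nod1 (0.97, SE 0.27), Nlrx1 (0.37, SE 0.09), Sharpin, a part of the linear ubiquitin ligase (0.29, SE 0.08), Tlr4 (0.34, SE 0.09) and the T-cell attracting chemokine gene Ccl5 (1.20, SE 0.29). The deubiquitinase gene Otud7b (-1.38, SE 0.34) and Csf1, the macrophage growth factor (-1.95, SE 0.47), fell. With the fibroblast level as a covariate Csf1 was at -0.68 and Otud7b at -0.39, and without the 6 control libraries they were at -0.23 and -0.45, with adjusted p of 0.565 to 0.939. With neighbouring libraries as a block in limma-voom, Ccl5, Ikbke and Nod1 remained called among the genes named here, and the others did not. Rela averaged 84.8 ± 9.62 and 95.7 ± 5.48 CPM (0.18, SE 0.11, adjusted p = 0.384).

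Across the 20 libraries the members varied together. Over their 45 pairs, Pearson's r of log2 CPM had a median of 0.85, from 0.20 to 0.96. The libraries share the split into cell types, and after subtracting group means the median was 0.43, from -0.10 to 0.88. Nfkbiz had the lowest median r with the other members, 0.38, yet one of the highest after subtracting group means, 0.61. The closest pairs within groups were Rel with Nfkbiz (0.88), Nfkbia with Nfkbib (0.87), Nfkb1 with Nfkbiz (0.86) and Nfkb1 with Rel (0.85). These are descriptions over libraries that differ in depth and in fibroblast and neutrophil marker RNA, whose part in these values was not tested.

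Among 9772 other genes, those most like each member over the 20 libraries were as follows. Nfkb1 was most like Sec24b and Cert1 (r = 0.986 and 0.985), Nfkb2 like Trps1 and Golph3 (0.981 and 0.975), and Rel like Bmpr2 and Ppp1r12a (0.970 and 0.969). Relb was most like Jak2, a kinase of cytokine receptors, and Daxx (0.966 and 0.963). Nfkbia was most like Pvr and Cd14, the co-receptor for lipopolysaccharide (0.969 and 0.968), Nfkbib like Litaf and Shisa5 (0.983 each) and Nfkbie like Oas2 and Nabp1 (0.960 and 0.958). Tnfaip3 was most like Isy1 and Cast (0.956 and 0.947), and Birc3 like the interferon-inducible gene Ifi205 and Trim30b (0.983 and 0.984). Nfkbiz had the weakest nearest genes, Zfand2a and Ctbp2 (0.878 and 0.877). Within groups its r with them was 0.89 and 0.87. This was not particular to Nfkbiz. For the other members the r within groups was 0.71 (Tnfaip3 with Isy1) to 0.95 (Nfkb1 with Sec24b and with Cert1). These genes were picked by their r over the same 20 libraries, so a high r within groups is in part set by that choice. The r within groups of genes not picked this way was not summarised, so no conclusion is drawn.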

How the data were processed

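Bulk RNA was sequenced from 20 libraries in 4 groups, named by their titles; replicates were numbered in order of deposit, which only names them. Per the labels' protocols, a stranded kit was used on 0.1 ug of total RNA. GSNAP and the build GRCm38 are named per the submitters' processing notes, and the sources used here do not give the counting tool or its strand setting. The deposited files hold, per the file headers, counts and nRPKM values for each gene model. The authors' nRPKM (RPKM) values were used for levels between genes, and the deposited counts, unchanged, for CPM and tests. Gene symbols came from RefSeq on GRCm38.p6, which matched 31049 of 36528 models (85.0%) holding 97.97% of counts. A floor of 3 counts was 0.0822 to 0.0994 CPM, and this covers counting error only.

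Counts were fitted with edgeR 4.0.16 in R 4.3.3 (filterByExpr, TMM, quasi-likelihood, 1 mean per group over all 20 libraries), with Benjamini-Hochberg adjustment over 15390 genes and a threshold of 0.05. The fit was also run on simulated counts, with each library drawn independently. These held no likeness of neighbouring libraries and no set treatment difference in fibroblast marker RNA, so they do not bear on either. Alternatives were RLE size factors, DESeq2 1.42.0, limma-voom (limma 3.58.1), other low-count filters, only the groups compared, neighbours as a block, the fibroblast marker level as a covariate, fits without 6 control libraries, and each library left out. Log2 CPM used a prior count of 2. The members and lists were chosen with earlier results of these data known. The text names all members, Rela, up to 3 called genes per role list and treatment contrast by smallest p, the 2 genes most like each member, and set marker examples; 1 gene that this rule picks is not reported here.

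Samples with adjacent sample numbers, 1 macrophage and 1 monocyte library, were taken as pairs after a check. The correlation of their deviations from group means was 0.218 to 0.722, over 0.1 in all 10 pairs. Each library was also compared with the 5 libraries of the other cell type under the same treatment. Among these, 18 of 20 libraries were most like their own neighbour. The labels do not state this pairing.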

Additional observations from a re-analysis of the deposited data

Results flagged for a closer look

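In 40 groups of 5 libraries (10 members in 4 groups), 4 had a lowest library set apart from the rest, with a gap of over 0.71 of the group's range. Chance flags about 1 in 20 groups. Nfkb1 in control macrophages had replicate 1 at 135 CPM and the others at 207 to 228 (gap 0.817 of the range). Nfkb2 in control monocytes had replicate 4 at 142 CPM and the others at 202 to 215 (0.846). Nfkb2 in treated monocytes had replicate 5 at 177 CPM and the others at 231 to 245 (0.816). Rel in control monocytes had replicate 4 at 33.2 CPM and the others at 64.3 to 78.5 (0.767). Control macrophage 1 and control monocyte 4 carry neighbouring sample numbers and were each the lowest of their group for several members, 4 and 9 of 10. Both were among the 6 control libraries with the most fibroblast marker RNA, at 5.17 and 5.52 log2 CPM, and its part in these low values was not tested.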

How the results depend on the processing

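Calls between cell types were the most stable: 9 of 10 members were called in both conditions under all alternatives run, except 8 in control tumours with only the groups compared, where Rel was lost. The replicate block (neighbours, consensus correlation 0.53) changed no member's call, with 3 called in monocytes, 9 and 9 between cell types and 0 elsewhere. In monocytes 0 members were called with the covariate, with only the groups compared or without the 6 libraries, and 1 to 4 with 1 library left out. The cause was not tested.

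Over all genes, calls in macrophages after treatment were 715, against 1798 (DESeq2), 191 (limma-voom), 243 (limma-voom with the replicate block), 1193 (only the groups compared), 2 (covariate), 70 (without the 6 libraries) and 14 to 1928 with 1 library left out. In monocytes they were 3900, against 2019 (only the groups compared), 3 (covariate), 83 (without the 6) and 1883 to 5359 with 1 left out. For the difference of effects they were 0, against 5 (DESeq2), 3 (edgeR with the replicate block), 8 (limma-voom with it) and 0 to 41.

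Fold changes that changed sign had not been called. With the covariate these were Nfkb1 (-0.13), Relb (-0.07) and Nfkbiz (-0.22) in macrophages and Nfkbiz (-0.15) in monocytes. Without the 6 libraries they were Nfkb2 (0.12) and Nfkbiz (-0.18) in macrophages, Nfkbia (-0.13), Nfkbib (-0.0) and Nfkbiz (-0.28) in monocytes, and the difference of effects for Nfkbib (-0.09), Nfkbie (-0.19), Nfkbiz (-0.11) and Birc3 (-0.22). With 1 library left out the ranges were, in macrophages, Nfkb2 -0.11 to 0.01, Rel -0.18 to 0.03, Nfkbia -0.09 to 0.04 and Nfkbiz -0.06 to 0.19. They were -0.05 to 0.27 for Nfkbiz in monocytes and -0.26 to 0.11 for Nfkbiz between cell types in control tumours. For the difference of effects they were Nfkb1 -0.01 to 0.28, Nfkbib -0.05 to 0.16, Nfkbie -0.0 to 0.39 and Nfkbiz -0.14 to 0.22.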
